A study of Arabidopsis thaliana with 20 samples.

Results

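Roots of Arabidopsis thaliana that had been kept in darkness in air were compared at 24 h and at 7 h, on 4 of the 20 Affymetrix ATH1 arrays of the series. These were the 2 arrays labelled as root dark controls at 24 h and the 2 labelled as root dark controls at 7 h, and no array of plants in the light entered the comparison. All plants were wild type Col-0, grown in individual pots of soil at 20 °C under a photoperiod of 9 h and used at a rosette of 9 to 10 leaves. The dark controls stood in the chamber that also held the submerged plants and were watered every other day, whereas light controls were watered every day. Submergence began 2 h after lights on, and if the dark controls entered darkness with it, the 7 h harvest fell 9 h after lights on, when the lights would have gone off. The 24 h harvest then fell 2 h after lights on of the next cycle. Duration of darkness and time of day therefore changed together and cannot be told apart in these 4 arrays. Other arrays used were 4 of submerged roots at 7 and 24 h and 4 of dark shoots (rosette leaves) at 7 and 24 h. For orientation, 2 arrays of roots from plants harvested in the light at 0 h were set beside them. Another 2 arrays, of shoots harvested in the light at 0 h, were shown with the clock genes. The spread behind every p-value was pooled over all 16 dark and submerged arrays of roots and shoots, 4 of submerged shoots among them.

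A root in soil lives on sugar sent down from the leaves, so a dark plant loses its supply at the root once the reserves of the shoot run low. Sucrose reaches the root in the phloem and is used for respiration, for wall synthesis and for the division and stretching of cells near the tip, and plant cells that lack sugar are known to break down amino acids and to digest their own contents by autophagy. The circadian clock, a loop of transcription factors that keeps running in darkness, also sets the daily rise and fall of many transcripts, in roots as in leaves.

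Values are log2 RMA values, in which a difference of 1 is a 2-fold difference, and each value is the level of a probe set on an array. Each sample was RNA of whole roots, so fewer cells of a type and less RNA per cell cannot be told apart. The labels speak of 2 independent biological replicate experiments. Arrays of the same harvest correlated over 22746 probe sets with Pearson's r of 0.9929 at 7 h and 0.9950 at 24 h, and arrays of different harvests with r of 0.9778 to 0.9796. Array medians were 6.310 and 6.344 at 7 h and lower at 24 h, at 6.253 and 6.252. The leaf markers STOMAGEN, SPCH, MUTE, FMA and YAB3 read 3.43 to 4.67 on all 4 arrays, near the bottom of the scale, and RCA, the activase of Rubisco, read 6.74 to 7.70. None of these 6 shoot markers was called, but 1 was called lower without replicate 1 of the 7 h harvest. Among root markers only PYK10, the beta-glucosidase of ER bodies in root and seedling tissue, was named alone by a probe set in the annotation used. PYK10 read 10.78 to 11.79. The actin control read 3.34 and 3.40 higher at its 3' end than at its 5' end at 7 h, and 3.69 and 3.72 higher at 24 h. For the GAPDH control these gaps were 0.48 and 0.58 at 7 h and 0.88 and 0.56 at 24 h, and overlapped. The part of these gaps in the results was not tested.

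Between 7 and 24 h of darkness 5517 of 22746 probe sets changed, or 24.3% of those tested (limma, adjusted p under 0.05, here termed called). Of these, 2471 were higher at 24 h (10.9%) and 3046 were lower (13.4%). A change of at least 2-fold was seen in 906 of the called probe sets (3.98%), with 377 higher (1.66%) and 529 lower (2.33%). The median called rise was 0.63 and the median called fall -0.65 on the log2 scale, while the median change over all probe sets was 0.00. The arrays of the harvests did not overlap at 13087 probe sets (57.5%). With only the 4 dark root arrays in the fit, 3887 probe sets were called, 1705 higher and 2182 lower. When each array was instead centred on its own median, the split turned to 3255 higher and 2404 lower, that is 57.5% higher among the called in place of 44.8%. Quantile normalization again gave 2760 higher and 2818 lower, or 49.5% higher. Without replicate 1 of the 24 h harvest 3572 probe sets were called. At the level of genes, 13356 genes had a probe set that names them alone, of which 1412 were called higher and 1570 lower, with a median change of 0.01.

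**Figure D1:**
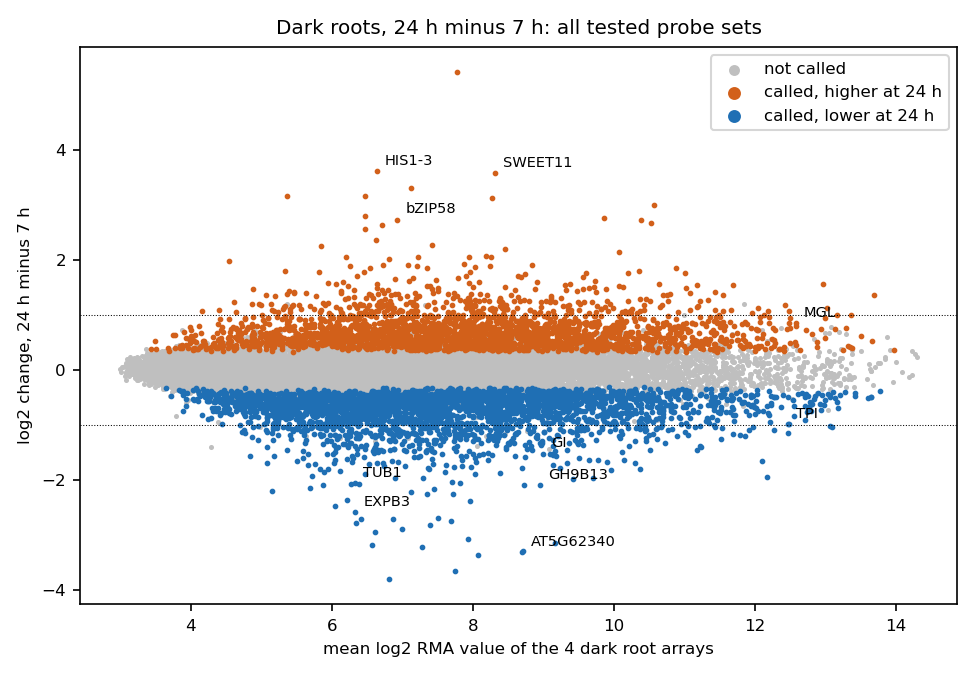
Log2 change in dark roots (24 h minus 7 h, vertical axis) against the mean log2 RMA value of the 4 dark root arrays (horizontal axis), with a point for each of 22746 probe sets. Orange points were called higher (2471), blue points called lower (3046) and grey points not called. Dotted lines mark a 2-fold change, and 906 called probe sets lay beyond them.

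The largest rise of a named gene was that of HIS1-3, a linker histone H1 variant known to be induced by drought. HIS1-3 read 5.35 and 4.30 at 7 h and 8.30 and 8.59 at 24 h. The rise was 12.3-fold, or 3.62 on the log2 scale (SE 0.25, adjusted p = 1.9e-07). In roots harvested in the light it had read 4.29 and 3.99, so its level was low at both earlier harvests and high only at 24 h. SWEET11, a plasma membrane exporter of sucrose that serves phloem loading in leaves, read 6.51 and 6.53 at 7 h and 10.16 and 10.05 at 24 h. That was a 12.0-fold rise (log2 3.59, SE 0.21, adjusted p = 4.2e-08), with both arrays of each harvest close together. SWEET11 was the only one of 14 measured SWEET genes to be called, beside 24.3% of all probe sets. More SWEET genes were called without replicate 2 of the 24 h harvest. The transcription factor gene bZIP58 read 5.54 and 5.59 at 7 h and 8.22 and 8.39 at 24 h, a rise of 6.68-fold (log2 2.74, SE 0.13, adjusted p = 2.6e-09). It had read 7.99 and 8.47 in the light, so that the 24 h arrays lay near the level of the light harvest.

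The other 12 of the 15 largest rises are known here by their locus only. AT5G26130 read 8.49 and 9.65 at 7 h and 12.23 and 11.92 at 24 h, a rise of 3.0 (SE 0.42, adjusted p = 9.3e-05), although its 7 h arrays lay far apart. AT3G05950 read 9.25 and 9.12 at 7 h and 11.87 and 11.86 at 24 h, a rise of 2.68 (SE 0.19, adjusted p = 2.7e-07). The remaining 10 rose by 1.79 to 2.2 on the log2 scale, with arrays that did not overlap between harvests, which the choice of genes required. Larger changes than these, up to 5.42 for a rise and -3.80 for a fall, belonged to probe sets without a single gene name.

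**Figure D2:**
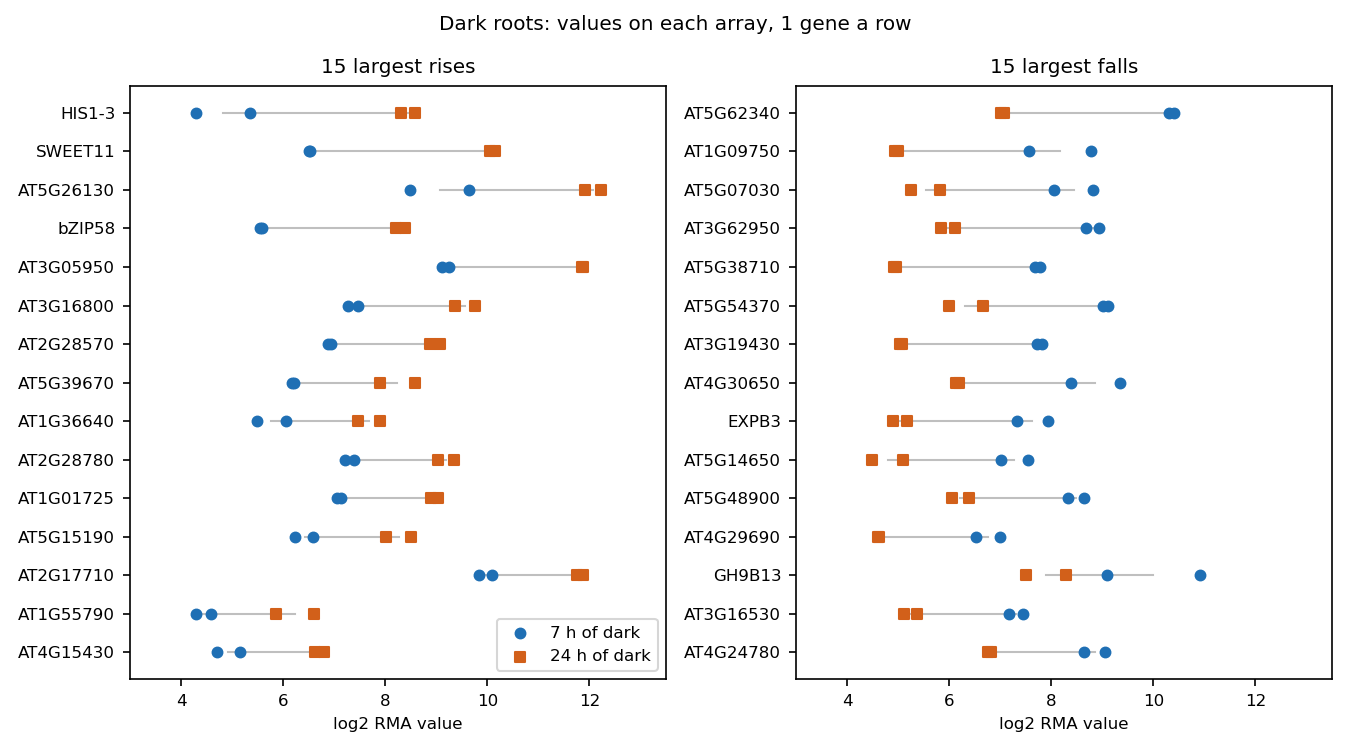
Log2 RMA value (horizontal axis) on each of the 4 dark root arrays for the 15 genes that rose most (left) and the 15 that fell most (right), with circles for 7 h, squares for 24 h and a grey line between the group means. HIS1-3 and SWEET11 moved by 3.62 and 3.59, AT5G62340 by -3.32, and the arrays of GH9B13 at 7 h lay farther apart (10.91 and 9.09) than those of any other gene shown.

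Genes with a symbol that rose at least 2-fold covered several roles, and these were picked after their values were seen. STR18, a sulfurtransferase of the rhodanese family, read 9.33 and 9.29 at 7 h and 11 and 10.68 at 24 h, a rise of 1.53 (SE 0.13, adjusted p = 1.6e-06). UPB1, a bHLH factor known to set the border between dividing and elongating cells in the root tip, read 7.49 and 7.33 at 7 h and 8.99 and 8.59 at 24 h, a rise of 1.38 (SE 0.15, adjusted p = 1e-05). AGL42, a MADS box gene used as a marker of the quiescent centre, rose by 1.18 (SE 0.19, adjusted p = 0.00028). Each of these 3 genes had both 24 h arrays above both 7 h arrays, which the choice of genes required.

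Further rises touched redox, detoxification and the cytoskeleton. The glutaredoxin gene GRXC1 rose by 1.08, the glyoxalase gene GLX2-5 by 0.99, and cyanase, encoded by CYN, by 1.04, each with an SE of at most 0.12. The actin-binding LIM proteins PLIM2b and WLIM2b rose by 1.11 and 0.96. Among the tau glutathione transferases 4 of 11 measured genes rose and 1 fell, beside 10.9% and 13.4% of all probe sets. Fewer were called without replicate 1 of either harvest. The largest rise was that of GSTU27, which read 8.33 and 9.04 at 7 h and 9.87 and 9.85 at 24 h. DI19, a zinc-finger gene named for its induction by drought, was among the most abundant and read 12.09 and 11.95 at 7 h and 12.91 and 13.00 at 24 h, a rise of 0.94 (SE 0.11, adjusted p = 2e-05). SAG101, a lipase-like partner in plant immunity first described in leaf senescence, rose by 1.01 (SE 0.17, adjusted p = 0.00036). INO80, the ATPase of a chromatin remodelling complex, rose by 0.80 (SE 0.13, adjusted p = 0.00028), and SKP2A, an F-box gene tied to cell cycle proteins, by 0.79 (SE 0.15, adjusted p = 0.00086).

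The largest fall of a gene with a single name was that of AT5G62340, which read 10.31 and 10.41 at 7 h and 7.07 and 7.01 at 24 h. It fell by 3.32 on the log2 scale, or 9.98-fold (SE 0.20, adjusted p = 4.7e-08), and had read 10.86 and 11.49 in the light. AT1G09750 read 8.78 and 7.56 at 7 h and 4.95 and 5.00 at 24 h, a change of -3.19 (SE 0.32, adjusted p = 5.5e-06). AT3G62950 stood apart from most of these genes because its light level was low. It read 4.80 and 4.56 in the light, 8.94 and 8.69 at 7 h and 6.12 and 5.85 at 24 h, a change of -2.83 between the dark harvests (SE 0.17, adjusted p = 4.7e-08). Among the 15 largest falls, 12 had a mean in the light above that at 7 h, as had 58.4% of all called falls. Of the 15 largest rises 8 had a light mean below that at 7 h, as had 57.1% of all called rises. The 7 h arrays entered both the choice of genes and these counts. The 2 falls with a symbol were EXPB3 and GH9B13, both of which belong to wall groups described next.

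Most wall loosening genes that were called were lower at 24 h, although most of those measured were not called. Of 20 measured genes of the wall loosening list (expansins, which let walls creep, and the xyloglucan-modifying XTH enzymes), 8 fell, 1 rose and 11 were not called, with a median change of -0.31. Over all probe sets tested 13.4% were called lower. EXPB3 read 7.93 and 7.34 at 7 h and 4.91 and 5.17 at 24 h, a change of -2.59 (SE 0.24, adjusted p = 2.6e-06), and had read 10.59 and 10.32 in the light. EXPB2 read 7.03 and 6.44 at 7 h and 4.94 and 4.92 at 24 h, a change of -1.80 (SE 0.19, adjusted p = 7.2e-06). EXPA4, the brightest of the expansins that fell, read 9.83 and 9.31 at 7 h and 8.07 and 8.17 at 24 h, a change of -1.45 (SE 0.22, adjusted p = 0.00017). In these 3 genes the 24 h arrays lay close together and below both 7 h arrays. EXPA15 fell by 1.18, EXPA9 by 0.91, XTH32 by 1.15, XTH19 by 0.85 and XTH20 by 0.61, of which XTH19 lost its call without replicate 2 of the 7 h harvest and without either 24 h array. EXPA20 was the exception and rose by 0.75 (adjusted p = 0.005).

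Further counts come from 44 families, each with at least 5 measured genes that share a stem of the symbol, which were looked up after values were seen and carry no test of their own. Each count stands beside 10.9% of all probe sets called higher and 13.4% called lower, and most members of most families were not called. Among the GH9 endoglucanases, which cut beta-1,4-glucans, 4 of 13 measured genes fell and none rose. GH9B13 read 10.91 and 9.09 at 7 h and 7.51 and 8.29 at 24 h, a change of -2.10 (SE 0.40, adjusted p = 0.0012), with the widest spread between replicates among the genes named. GH9B8 changed by -1.56, GH9B7 by -1.32 and GH9C2 by -1.18. The median over the family was only -0.04, and 0.04 with median centring, because the other members stayed near 0. Of the serine carboxypeptidase-like genes (SCPL), 11 of 29 fell and none rose, led by scpl31 at -1.38 (SE 0.16, adjusted p = 1.4e-05) and SCPL45 at -1.32 (SE 0.18, adjusted p = 6.2e-05). With median centring 9 SCPL genes fell and 1 rose. Of the TBL genes, whose products add acetyl groups to wall polymers, 4 of 22 fell and none rose, a share near that of all probe sets, with TBL36 at -0.76, but none was called without replicate 1 of the 24 h harvest and 1 without replicate 1 of the 7 h harvest.

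Beta-tubulin genes supply the microtubules that guide wall synthesis and form the spindle. TUB1 read 7.44 and 7.27 at 7 h and 5.22 and 5.38 at 24 h, a change of -2.06 (SE 0.24, adjusted p = 1.7e-05). In the light TUB1 had read 10.23 and 10.22. TUB5 changed by -0.95 and TUB6 by -0.82, so that 3 of 5 measured beta-tubulin genes fell and none rose, beside 13.4% of all probe sets called lower. Of the IQD genes, calmodulin-binding proteins of which several sit on microtubules, 5 of 15 fell and none rose, led by IQD31 at -1.26 (SE 0.13, adjusted p = 7.1e-06). Without replicate 2 of either harvest 2 IQD genes were called. SKU5, a GPI-anchored wall protein needed for straight root growth, fell by 1.04 (SE 0.12, adjusted p = 1.5e-05).

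**Figure D3:**
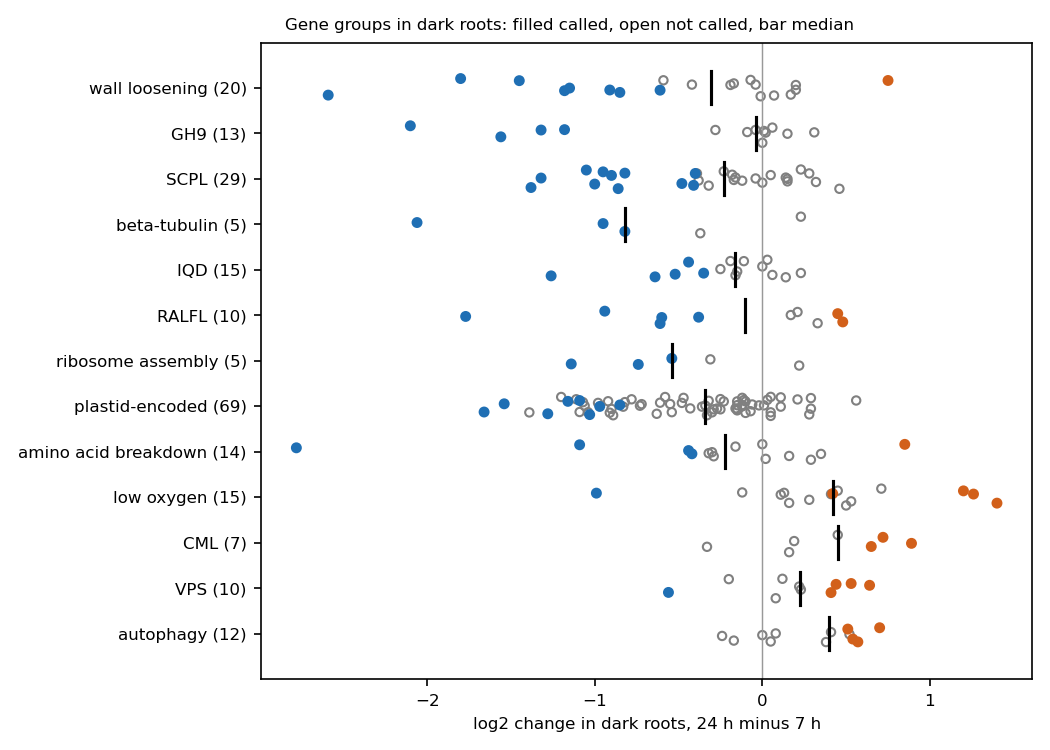
Log2 change in dark roots (24 h minus 7 h, horizontal axis) of each measured member of 13 gene groups, with the number measured in brackets. Filled points were called (orange higher, blue lower), open points were not, and the bar is the group's median, which was -0.31 for wall loosening, -0.82 for beta-tubulin and 0.40 for autophagy.

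Of the cell cycle list only 4 genes were measured, of which 1 rose, 1 fell and 2 were not called. Among all probe sets 10.9% were called higher and 13.4% lower. PRL, which encodes the MCM7 subunit of the replicative helicase, read 8.00 and 8.15 at 7 h and 6.71 and 6.51 at 24 h, a change of -1.46 (SE 0.15, adjusted p = 5.5e-06). POLA3, ICU2 and FBL17 were picked by symbol after their values were seen. POLA3 and ICU2, subunits of the DNA polymerase alpha complex that starts new strands, changed by -1.18 (SE 0.15, adjusted p = 3.7e-05) and by -1.14 (SE 0.13, adjusted p = 1.7e-05). FBL17, an F-box protein that removes inhibitors of cyclin-dependent kinases, fell by 1.03. SIM, itself an inhibitor of cyclin-dependent kinases, rose by 0.66 (SE 0.16, adjusted p = 0.0055). It was not called without replicate 1 of the 7 h harvest or replicate 2 of the 24 h harvest.

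Of 5 measured nucleolar genes listed for ribosome assembly 3 fell and none rose, with a median change of -0.54, beside 13.4% of all probe sets called lower. AT3G05060 read 9.23 and 9.52 at 7 h and 8.17 and 8.30 at 24 h, a change of -1.14 (SE 0.15, adjusted p = 4.1e-05). AT5G14520, the pescadillo gene, changed by -0.74 (adjusted p = 0.0022), and AT2G40360 by -0.54 (adjusted p = 0.034). The last of these was not called with median centring or without replicate 1 of either harvest. NRPA2, the second largest subunit of RNA polymerase I, which transcribes ribosomal RNA, was picked after its value was seen and fell by 1.05 (SE 0.15, adjusted p = 0.00011).

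Among genes of small secreted peptides, RALFL34, known for its part in lateral root initiation, read 8.91 and 8.32 at 7 h and 6.67 and 7.02 at 24 h, a change of -1.77 (SE 0.18, adjusted p = 5e-06). Of 10 measured RALFL genes 5 fell and 2 rose, and the 2 that rose, RALFL18 and RALFL33, did so by 0.48 and 0.45. With an array left out 2 to 3 RALFL genes fell and 0 to 1 rose. CLE41, whose peptide keeps vascular stem cells dividing, read 9.18 and 8.34 at 7 h and 6.87 and 7.59 at 24 h, a change of -1.53 (SE 0.26, adjusted p = 0.00041). The defensin-like gene PDF1.4 rose by 1.53 and PDF2.1 fell by 1.34. Of 7 genes with the stem PDF, which also takes the peptide deformylase genes PDF1A and PDF1B, 1 rose and 3 fell.

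Several metabolic genes with a symbol fell, picked after their values were seen and from no fixed list. ACLA-1 and ACLA-2 encode a subunit of ATP-citrate lyase, which makes cytosolic acetyl-CoA. ACLA-2 read 9.66 and 9.64 at 7 h and 8.29 and 8.27 at 24 h, a change of -1.37 (SE 0.12, adjusted p = 1.5e-06), and ACLA-1 changed by -1.04 (SE 0.13, adjusted p = 4.5e-05). TPI, triosephosphate isomerase of glycolysis, was abundant and read 12.86 and 13.06 at 7 h and 11.87 and 12.10 at 24 h, a change of -0.98 (SE 0.12, adjusted p = 3.1e-05). GPDHp, a glycerol-3-phosphate dehydrogenase of plastids, changed by -1.17, and PMEAMT, a methyltransferase on the way to phosphatidylcholine, by -1.21. VHA-A3, a subunit of the vacuolar proton pump, fell by 1.04. The single measured gene of the sucrose and glycolysis list, GAPC2, differed by -0.09 (adjusted p = 0.75). Of 6 measured starch genes 4 were not called, beside 24.3% of all probe sets called in either direction. SBE2.2, a starch branching enzyme, rose by 0.72. DPE1, a disproportionating enzyme of starch breakdown, fell by 0.60. The call of DPE1 was lost without replicate 1 of the 7 h harvest or without either 24 h array.

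The amino acid breakdown list held changes in both directions. Of 14 measured genes 4 fell, 1 rose and 9 were not called, with a median of -0.22. Over all probe sets 13.4% were called lower and 10.9% higher. AT5G38710 had one of the largest falls of all named genes, from 7.78 and 7.68 at 7 h to 4.92 and 4.97 at 24 h, a change of -2.78 (SE 0.20, adjusted p = 3.4e-07). Its light level, 6.16 and 5.84, lay between the dark harvests. ETFQO, which passes electrons from branched-chain amino acid breakdown to the respiratory chain, read 9.94 and 10.22 at 7 h and 9.21 and 8.77 at 24 h, a change of -1.09 (SE 0.14, adjusted p = 4.6e-05). Both 24 h arrays stayed above the light values of 7.44 and 7.16. ALDH6B2 changed by -0.44 and AT2G26800 by -0.42, and each lost its call without replicate 2 of the 7 h harvest, AT2G26800 also without either 24 h array. MGL, methionine gamma-lyase, rose from 12.15 on both 7 h arrays to 13.24 and 12.75, a rise of 0.85 (SE 0.16, adjusted p = 0.0012). In the light MGL had read 5.69 and 6.62, so most of its distance from the light level was already present at 7 h.

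Autophagy genes were higher where they changed. Of 12 measured genes 4 rose and none fell, with a median of 0.40, beside 10.9% of all probe sets called higher. All 4 encode ATG8, the small protein that is attached to the autophagosome membrane. ATG8C read 9.42 and 9.37 at 7 h and 10.25 and 9.94 at 24 h, a rise of 0.70 (SE 0.14, adjusted p = 0.0019). ATG8E rose by 0.57, ATG8B by 0.54 and APG8H by 0.51, with adjusted p from 0.0067 to 0.013. The values of ATG8G, ATG8D and APG8A, 0.52, 0.41 and 0.38, did not pass the threshold. Without replicate 1 of the 7 h harvest 2 were called higher, without replicate 1 of the 24 h harvest 2 were higher and 1 was lower, and with median centring 7 were higher. Probe sets of such close copies can cross-hybridize, so the split among ATG8 genes is less certain than their sum. Of 10 measured VPS genes, which sort membrane proteins to the vacuole, 4 rose and 1 fell, led by VPS60.2 at 0.64 and VPS22 at 0.53, and 2 to 3 were called higher when an array was left out.

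Calmodulin-like genes, whose products bind calcium, rose in 3 of 7 measured cases, by 0.89 for CML43, 0.72 for CML23 and 0.65 for CML42, beside 10.9% of all probe sets called higher. The other 4 were not called, with values from -0.33 to 0.45, the latter that of CML38 (adjusted p = 0.48). Of the hormone genes measured, EIN3, the transcription factor of ethylene signalling, rose by 0.50 (SE 0.11, adjusted p = 0.0036) and the gibberellin receptor gene GID1B by 0.51 (SE 0.14, adjusted p = 0.013), the latter not called without replicate 1 of the 7 h harvest or without either 24 h array. None of 8 auxin response genes and none of 2 cytokinin response genes was called, though 1 auxin gene rose with median centring and without replicate 2 of the 24 h harvest. The share of all probe sets called was 24.3% in either direction and 10.9% higher. Among the families, 1 of 7 IAA genes and 1 of 5 RR genes (response regulators) rose, namely IAA18 by 0.53 and RR18 by 0.62. RR18 was dim enough to be dropped by the filter on low values.

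The core low-oxygen list, genes that most plant cells raise when oxygen falls, held 15 measured genes, of which 4 rose, 1 fell and 10 were not called, with a median of 0.42, beside 10.9% of all probe sets called higher and 13.4% called lower. AT1G33055 read 10.08 and 10.19 at 7 h and 11.26 and 11.53 at 24 h, a rise of 1.26 (SE 0.18, adjusted p = 0.00013). AT4G10270 read 4.73 and 5.16 at 7 h and 5.86 and 6.82 at 24 h, a rise of 1.4 (SE 0.29, adjusted p = 0.0021). Even at 24 h it lay under its light values of 7.47 and 8.64 and far under the means of submerged roots, 10.83 and 11.74. AT5G66985 rose by 1.2 (SE 0.41, adjusted p = 0.042) and AT4G27450 by 0.42 (adjusted p = 0.037), and both lost the call whichever of the 4 arrays was left out. Without either 7 h array 2 of the listed genes rose and 1 fell. PDC2, a pyruvate decarboxylase of ethanol fermentation, moved the other way, from 9.41 and 8.88 at 7 h to 8.11 and 8.19 at 24 h, a change of -0.99 (SE 0.17, adjusted p = 0.00057).

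Glucosinolates are sulfur-rich defence compounds that Arabidopsis roots hold in quantity. PYK10, a beta-glucosidase that can cleave them, read 11.75 and 11.79 at 7 h and 10.78 and 10.92 at 24 h, a change of -0.92 (SE 0.16, adjusted p = 0.00054). NAI2, needed to form the ER bodies that store PYK10, read 11.50 and 11.95 at 7 h and 10.67 and 10.75 at 24 h, a change of -1.01 (SE 0.15, adjusted p = 0.00013). BCAT4, which starts the lengthening of methionine for glucosinolate synthesis, rose instead, from 8.21 and 8.83 to 9.24 and 9.77, by 0.98 (SE 0.20, adjusted p = 0.0019). Its light values were 12.33 and 12.18, so that BCAT4 remained well under the light level at both dark harvests. The beta-glucosidase genes BGLU42 and BGLU25 changed by -1.78 (SE 0.16, adjusted p = 1.8e-06) and by -1.3 (SE 0.12, adjusted p = 2.5e-06), and 3 of 20 measured BGLU genes were called, all lower, a share near the 13.4% of all probe sets.

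Of 20 clock genes looked for by name, 3 were named alone by a probe set in the annotation used. The others may have a probe set among the 8730 tested ones that the annotation did not list. GI, an evening gene of the clock loop, read 9.50 and 10.01 at 7 h and 8.08 and 8.39 at 24 h, a change of -1.52 (SE 0.20, adjusted p = 6.4e-05). In the light GI had read 7.87 and 7.88. COR27, a cold- and clock-regulated repressor gene, read 8.80 and 8.50 at 7 h and 7.65 and 7.05 at 24 h, a change of -1.3 (SE 0.16, adjusted p = 3.7e-05). Its light values were 4.05 and 3.68, far under both dark harvests. AT4G33980, the third of these genes, read 8.13 and 8.25 at 7 h and 8.39 and 8.15 at 24 h, a difference of 0.08 (SE 0.18, adjusted p = 0.82) with overlapping arrays, against 3.46 and 3.52 in the light. The 24 h mean of GI, 8.23, thus lay near its light mean of 7.87, while COR27 and AT4G33980 stayed at 7.35 and 8.27, against light means of 3.86 and 3.49. Of the wider clock lists AT1G69570 rose by 0.91 (SE 0.12, adjusted p = 6.3e-05), and AT5G52660 differed by 0.33 (adjusted p = 0.1).

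**Figure D4:**
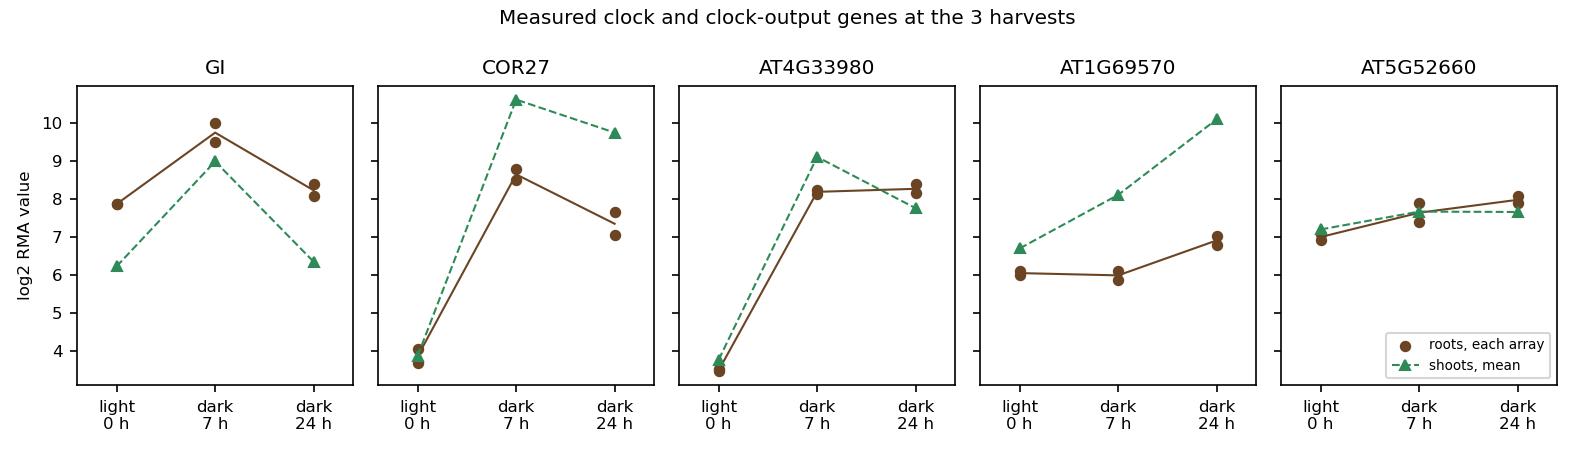
Log2 RMA values of 5 clock and clock-output genes in roots (circles for each array, line through the means) and in shoots (triangles, means) in the light at 0 h and after 7 and 24 h of darkness. GI and COR27 fell in roots between 7 and 24 h by 1.52 and 1.3, AT1G69570 rose by 0.91, and COR27 and AT4G33980 stayed far above their light values.

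The plastid genome was represented by 69 genes, of which 8 were called lower at 24 h and none higher, beside 13.4% of all probe sets called lower. The largest changes were those of psaI, -1.66 (SE 0.48, adjusted p = 0.02), and psaB, -1.54 (SE 0.51, adjusted p = 0.038). Replicate 2 of the 7 h harvest stood apart for these genes. It was above replicate 1 for 55 of the 69 genes, and the median of the 69 was 5.99 and 6.82 on the 7 h arrays and 5.89 and 6.07 on the 24 h arrays. Without that array 2 plastid genes were called lower, and without the other 7 h array 21 were called lower and 1 higher. Leaving out replicate 1 or 2 of the 24 h harvest gave 3 and 4 called lower. The calls of psaI and psaB were lost without replicate 2 of the 7 h harvest and without either 24 h array. The gene with the closest 7 h values among those called was ndhI, which read 10.63 and 10.74 at 7 h and 9.23 and 9.82 at 24 h, a change of -1.16 (SE 0.18, adjusted p = 0.00024).

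Of 4 measured genes of the photosynthesis list 1 rose and 3 were not called, with a median change of 0.02. Among all probe sets 10.9% were called higher and 13.4% lower. The nuclear genes for chloroplast proteins named here did not share a single direction, but PSB27, LPA1 and LPA19 were picked after their values were seen. PSB27, a photosystem II assembly factor, read 10.01 and 9.60 at 7 h and 8.52 and 8.68 at 24 h, a change of -1.2 (SE 0.18, adjusted p = 0.00013), while its light values in roots were 5.77 and 5.97. LPA1 and LPA19, which also serve photosystem II assembly, rose by 0.92 (SE 0.12, adjusted p = 4.6e-05) and by 0.84 (SE 0.14, adjusted p = 0.00034). LHCB4.1, an antenna protein gene, rose by 0.58 (adjusted p = 0.013), a call that was lost without replicate 2 of the 7 h harvest or replicate 1 of the 24 h harvest.

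Several groups showed few calls or none, beside 24.3% of all probe sets called in either direction. None of 4 measured sugar starvation genes was called at 24 h against 7 h, the largest value being that of PPDK, -0.37 (adjusted p = 0.081). PPDK, AKINBETA1 and AT3G15450 already had means of 10.62, 12.38 and 13.93 at 7 h, against 4.98, 8.98 and 12.52 in the light. BZIP53 had means of 11.03 at 7 h and 10.97 in the light. None of 3 beta-oxidation genes, 4 iron genes, 4 phenylpropanoid genes and 2 nitrogen genes was called either. With single arrays left out, 1 sugar starvation gene fell and 1 iron and 1 nitrogen gene rose. Of the 4 measured genes of drought and cold, LTI30, a dehydrin, fell by 0.73 (SE 0.15, adjusted p = 0.0021; not called with all 20 arrays in the fit), and COR15A and COR15B read 4.18 to 4.61 on all 4 arrays. With so few measured genes in each list, a count of none called is not read as a difference from the share of all probe sets. A p above the threshold does not show that a level stayed the same.

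The same interval was then followed in submerged roots, to see which changes belonged to darkened roots in air. Submerged roots had 3434 probe sets called between 7 and 24 h (15.1%), with 1449 higher (6.37%) and 1985 lower (8.73%). Of the 5517 probe sets called in dark roots, 2116 were called in the same direction in submerged roots (38.4% of the dark list and 61.6% of the submerged list) and 38 in the opposite direction. The sign of the change was shared by 88.0% of the called probe sets, and by 66.9% of all tested. Over all probe sets the changes in both kinds of roots had a Pearson's r of 0.647, given as a description only. Among the 15 largest rises 13 were called higher in submerged roots too, and among the 15 largest falls 14 were called lower. HIS1-3 rose by 2.52 and SWEET11 by 2.23 in submerged roots, beside 3.62 and 3.59 in dark roots.

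The difference between the changes was called for 406 probe sets (1.78%), with 250 more positive in dark roots and 156 more negative. Without replicate 1 of the dark 24 h harvest 120 were called, without replicate 2 of submerged roots at 7 h 134, without replicate 1 of submerged roots at 24 h 247 and without replicate 2 at 24 h 80. BCAT4 had the largest named difference, since it rose by 0.98 in dark roots and changed by -1.63 in submerged roots, a difference of 2.62 (SE 0.28, adjusted p = 0.00077). In submerged roots BCAT4 came down from a mean of 11.44 to 9.81, near the 9.24 and 9.77 that dark roots reached from below. AT3G05950 rose by 2.68 in dark roots and by 0.44 in submerged roots, where it was already at a mean of 11.96 at 7 h. EXPB2 changed by -1.80 in dark roots and by -0.11 in submerged roots, a difference of -1.69 (SE 0.27, adjusted p = 0.0065), and was at 5.10 in submerged roots at 7 h, the level dark roots reached at 24 h. PYK10 fell in both, by 0.92 in dark roots and by 1.96 in submerged roots, a difference of 1.05 (SE 0.22, adjusted p = 0.03). STR18, which was picked after its values were seen, rose by 1.53 in dark roots but differed by only 0.06 in submerged roots, from a 7 h mean of 10.77.

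**Figure D5:**
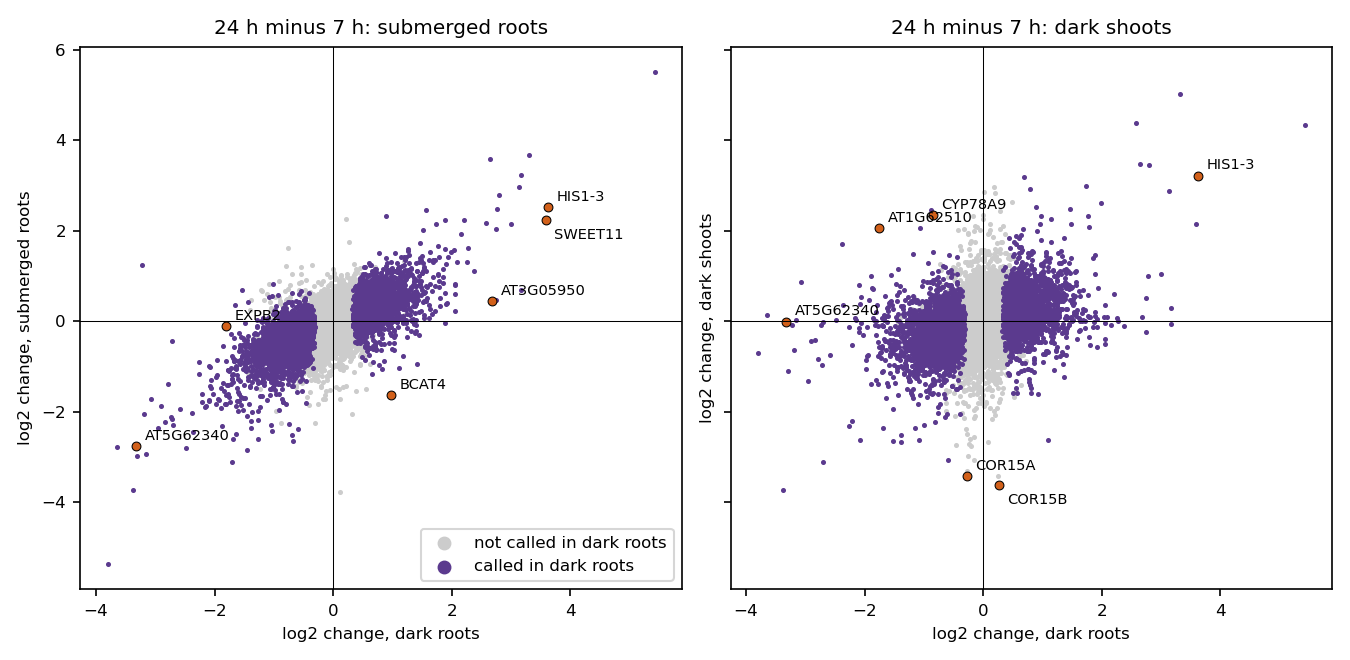
Log2 change from 7 to 24 h in dark roots (horizontal axis) against the change over the same interval in submerged roots (left) and in dark shoots (right), for 22746 probe sets, with those called in dark roots in purple and named genes in orange. Most purple points share the sign with submerged roots (88.0%), while COR15A and COR15B fell in shoots by 3.42 and 3.63 and stayed near 0 in roots.

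In dark shoots 4479 probe sets were called over the interval (19.7%), with 2172 higher (9.55%) and 2307 lower (10.1%). Of the 5517 called in dark roots, 1729 were called in the same direction in shoots (31.3% of the root list and 38.6% of the shoot list) and 237 in the opposite direction. The difference between root and shoot change was called for 2897 probe sets (12.7%), of which 1365 were more positive in roots and 1532 more negative. Without replicate 1 of the root 24 h harvest 1844 were called, and without 1 of the shoot arrays 1861 to 2029. HIS1-3 rose in both tissues, by 3.62 in roots and 3.22 in shoots, and their difference of 0.40 (SE 0.35) had an adjusted p of 0.54. That p does not show that the tissues rose alike. SWEET11 rose by 2.15 in shoots, less than in roots (difference 1.44, SE 0.29, adjusted p = 0.0041). bZIP58 rose by 0.51 in shoots, a difference of 2.23 (SE 0.18, adjusted p = 3.2e-06).

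Of the 15 largest root falls 4 were called lower in shoots. AT5G62340, AT3G19430 and AT5G54370 had shoot means of 4.32 to 4.80 at both harvests, near the bottom of the scale, where no fall could be seen. AT5G48900 was bright in shoots, with means of 11.13 and 11.01, and changed by -0.12 there (adjusted p = 0.74), against -2.26 in roots. TUB1 changed by -2.06 in roots and by 0.53 in shoots, a difference of -2.58 (SE 0.34, adjusted p = 0.00014). GH9B8 fell by 1.56 in roots and rose by 1.02 in shoots, a difference of -2.58 (SE 0.29, adjusted p = 3.7e-05). The difference was called for 13 of the 15 largest falls and 12 of the 15 largest rises, beside 12.7% of all probe sets. These genes were chosen for large changes on the same root arrays, which favoured such calls. GI changed by -2.64 in shoots and by -1.52 in roots (difference 1.13, SE 0.29, adjusted p = 0.018). AT4G33980 fell by 1.34 in shoots and was not called in roots, a difference of 1.42 (SE 0.25, adjusted p = 0.0015).

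Set beside the roots in light at 0 h, the means fell in one of 3 orders. For 57.1% of the 2471 called rises and 58.4% of the 3046 called falls the 7 h mean lay between the light mean and the 24 h mean. This was so for 51.4% of all probe sets. For 16% of the rises and 17.7% of the falls the 24 h mean lay back between light and 7 h, against 32.2% of all probe sets. For the other 26.8% and 23.8% the light mean lay between both dark harvests, against 16.4% of all. Among falls of at least 2-fold, 68.1% had the 7 h mean in the middle, as EXPB3 did with means of 10.45 in the light, 7.63 at 7 h and 5.04 at 24 h. These shares use the arrays that made the calls and are a description without a test.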

How the data were processed

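RNA of whole roots and of shoots was hybridised to Affymetrix ATH1 arrays after labelling of 500 ng with a 3' IVT kit, per the labels' protocols. The deposited log2 values were made by the authors with RMA and the affy package, per the submitters' processing notes, with versions not given in the sources used here. RMA fits all arrays together, compresses low signals and gives no count, so the number of arrays, 2 in each group, limits the precision. The table held 22810 probe sets, and 64 control probe sets were left out. Group means of the 16 dark and submerged arrays were fitted with limma 3.58.1 in R 4.3.3, with 8 residual degrees of freedom and two-sided p adjusted by Benjamini-Hochberg over 22746 probe sets. Adjusted p under 0.05 was called. The p-values rest on the spread between 2 replicates, pooled over 8 groups of roots and shoots. That spread was also drawn towards a value common to all probe sets (7.72 prior degrees of freedom). They therefore do not measure the spread of the dark root arrays alone. The fit was tested on simulated data. The probe annotation named a single gene for 13513 probe sets and several for 503, and 8730 tested probe sets were not listed in it. A gene with several probe sets was read from the brightest, and loci without a symbol are given by locus. The members and gene lists were chosen with earlier results of these data known. The 34 lists held 779 genes, of which 147 were named alone by a probe set in this annotation, here termed measured. The others may still have a probe set among those not listed. Named were the 15 largest rises and falls with arrays that did not overlap, 20 clock genes, up to 5 called members of each list, and the largest 6 and 5 differences each way against shoots and submerged roots. Further genes with a symbol, and the families, were picked after values were seen. Replicate numbers were not used to pair the samples, because the labels do not say whether they mark the same experiment. Deviations of the dark root harvests correlated at -0.009, which does not show that the samples were unpaired. Alternatives changed the filter, normalization, arrays fitted and variance model, and left out each array.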

Additional observations from a re-analysis of the deposited data

Results flagged for a closer look

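Over the same interval, genes whose change differed between roots and shoots in darkness by the contrast of both changes (limma, adjusted over all probe sets) are given as root minus shoot on the log2 scale. The difference was 3.90 for COR15B, 3.16 for COR15A, 3.72 for AT3G60420, 2.92 for LHCB4.3, 2.75 for AT2G36145 and 2.59 for AT3G05950. AT3G60420 has 2 probe sets, and the one given read 7.02 and 5.78 in dark roots at 24 h. Its call in dark roots was lost with only the compared arrays fitted. COR15A and COR15B, cold-induced genes of chloroplast protection, fell in shoots by 3.42 and 3.63 and were near the bottom of the scale in roots. On the negative side it was -3.81 for AT1G62510, -3.35 for AT5G01740, -3.31 for AT5G62340, -3.20 for CYP78A9, -2.78 for AT1G64500 and -2.70 for AT3G19430. Other genes were low in 1 tissue too. In dark roots AT1G64500 and AT2G36145 had means of 4.06 to 4.91, and LHCB4.3 of 5.31 and 5.16. In dark shoots AT5G62340, AT3G19430 and AT3G05950 had means of 4.37 to 4.80. These differences rest largely on the change in the other tissue.

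Genes whose change differed between dark and submerged roots are given as dark minus submerged. The difference was 2.62 for BCAT4, 2.24 for AT3G05950, 1.83 for AT3G23550, 1.76 for AT4G11290 and 1.64 for AT1G64590. On the negative side it was -1.69 for EXPB2, -1.62 for petB, -1.59 for psbI, -1.44 for AT2G43800 and -1.41 for AT5G38710. The plastid genes petB and psbI lost their call in dark roots without replicate 2 of the 7 h harvest, the array on which 55 of 69 plastid genes were higher than on its replicate.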

How the results depend on the processing

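No probe set called in dark roots was called in the opposite direction under the alternatives. The 5517 calls became 2973 among probe sets naming 1 gene, 906 with at least 2-fold, and 3572 to 4370 with an array left out. In dark shoots 4479 became 2232, 693 and 2728 to 2994. In submerged roots 3434 became 1724, 514 and 1694 to 2449, and the share higher went from 42.2% to 57.6% with median centring and 27.2% with at least 2-fold. The 2897 root minus shoot calls became 1456, 1100 and 1844 to 2615. The 406 dark minus submerged calls became 198, 215 and 80 to 402, and 124 with root arrays alone, where 72.6% were more positive in dark roots in place of 61.6%. Fewer probe sets or arrays enter most of these fits. With the replicate number as a block the counts were 5509, 4482, 3405, 2860 and 381. The root minus shoot difference has no fit within 1 tissue. Of 174 named genes called, 144 were called under every alternative without a fold minimum and 30 were lost under at least 1. Uncalled values that changed sign were AT4G33980 (-0.04 to 0.20 with an array left out, lowest without replicate 1 at 24 h), LHCB4.3 (-0.31 to 0.02, highest without replicate 2 at 7 h), AT2G36145 (-0.14 to 0.31, at -0.14 and -0.06 without replicate 1 at 24 h and at 7 h) and GAPC2 (-0.25 to 0.07, highest without replicate 2 at 7 h), and the cause was not tested. With 2 arrays in each group, and dim probe sets near the bottom of the scale, small changes could not be resolved.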
